A study of Mus musculus with 6 samples.

Results

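Brain microglia taken at the peak of experimental autoimmune encephalomyelitis (EAE), an inflammatory disease of the central nervous system used as a model of multiple sclerosis, were compared between control mice and mice with a conditional knock-out (CKO) in B cells. The genes described here encode nuclear subunits of the mitochondrial respiratory chain and of ATP synthase. They were chosen by gene symbol alone: the symbols begin with Nduf followed by a, b, c, s or v and a digit, are Sdha to Sdhd, or begin with Uqcr, Cox4 to Cox8, or Atp5. The rule found 84 genes of 19505 named genes, with 1 probe set each, among 22206 probe sets in the table. Both groups held 3 samples, and each sample was hybridised to 1 array. All mice were female C57BL/6, were immunized with 100 µg of recombinant myelin oligodendrocyte glycoprotein in 100 µL of IFA, and received 300 ng of pertussis toxin on the same day and again 48 h later. By the series title, the B cells concerned make GM-CSF, a growth factor of myeloid cells. The sources used here do not give the deleted gene, the Cre driver, the genotype of the controls, the ages or the number of mice per sample. Nothing in the labels says that replicates were separate animals. A p-value here sets the group difference against the spread among these samples, and that spread may be technical.

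The respiratory chain passes electrons from nutrients to oxygen and pumps protons across the inner mitochondrial membrane, and ATP synthase uses the returning protons to make ATP. Complex I oxidises NADH, complex II oxidises succinate, complex III hands electrons to cytochrome c, and complex IV (cytochrome c oxidase) reduces oxygen. Activated macrophages and microglia are known to shift between respiration and glycolysis, and succinate oxidation at complex II and reverse electron flow at complex I are known parts of their inflammatory response. The genes were grouped by complex. Complex I gave 6 core subunits, most of which carry its redox centres, and 29 accessory subunits. Complex II gave 4 subunits and complex III 8. Complex IV gave 11 ubiquitous subunits and 9 tissue forms and relatives of its subunits. ATP synthase gave 5 subunits of its catalytic F1 part and 12 of its stalk and membrane part. Ndufa4, named after complex I, was placed with complex IV, where its protein resides.

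The arrays did not have equal distributions. CKO replicates 2 and 3 had an interquartile range of 3.08 and 3.11 over all probe sets, whereas the remaining arrays had 3.66 to 4.0; a narrow range was thus seen in CKO and not in controls. The 13 measured microglia markers, among them P2ry12 and Tmem119, averaged 16.79, 16.66 and 16.29 in controls, in log2 units and in the order of replicates 1, 2 and 3. In CKO they averaged 17.18, 16.68 and 16.64. Astrocyte markers were uneven: the mean of 12 genes was 8.90, 10.82 and 8.38 in controls and 12.29, 8.94 and 8.93 in CKO, in the order of replicates 1, 2 and 3, which is the order of values throughout. Neuron markers (12 genes) averaged 8.17, 9.56 and 7.76 in controls and 10.52, 8.54 and 8.97 in CKO. The 9 measured T cell markers averaged 10.58, 8.63 and 10.56 in controls and 6.73, 7.14 and 7.0 in CKO, and 10 monocyte markers 12.78 to 13.63 and 11.22 to 11.82. In RNA from whole isolates, fewer cells of a type and less RNA per cell cannot be told apart.

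No gene of the respiratory chain or ATP synthase differed between CKO and control at an adjusted p under 0.05 in the limma fit over all probe sets. The count was 0 of 84, beside 0.00901% of all probe sets called, and the lowest adjusted p of a member was 0.452. At an unadjusted p under 0.05, 1 member (Atp5g2) was lower in CKO and 0 were higher, against 6.35% and 3.55% of all probe sets. Groups that did not overlap were seen for 1 member (Ndufa6, lower in CKO), against 8.48% of all probe sets below and 5.94% above. Means were lower in CKO for 65 of the 84, with a median difference of -0.22 on the log2 scale, while the median over all probe sets was 0.06. That split depended on the scaling. It was 51 lower and 33 higher after quantile normalization, 52 and 32 with equal interquartile ranges, 45 and 39 after cyclic loess, and 74 and 10 after median centring. Leaving out CKO replicate 2 or 3 left 47 and 44 members lower, with medians of -0.05 and -0.01. With array weights, 5 members passed the adjusted threshold (5.95%), 4 lower and 1 higher, against 7.63% of all probe sets. Standard errors of the members ran from 0.26 to 0.93, and their 95% intervals reached as low as -2.85 (Cox8a) and as high as 2.01 (Ndufb9), so a missing call does not show equal levels.

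**Figure D1:**
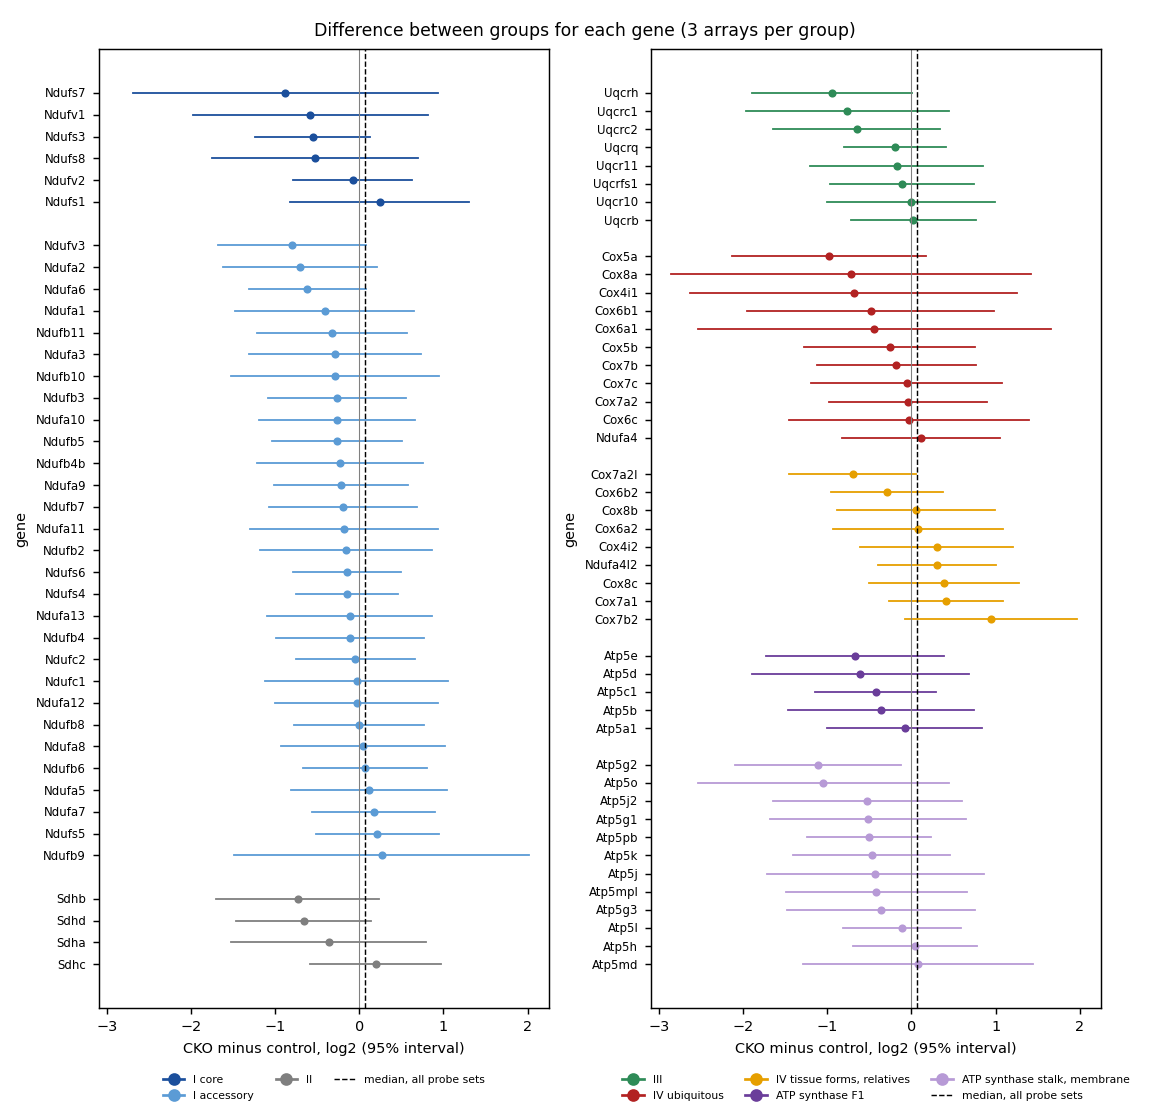
Difference in log2 value between CKO and control (x axis) for each of the 84 genes (y axis), by complex. Points are the limma estimates, lines their 95% intervals, and the dashed line the median over all probe sets (0.06). The interval of Atp5g2 is the one that lies wholly below 0; none lies wholly above.

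The values of these genes divided the CKO arrays. CKO replicate 1 gave the highest value of the 6 arrays for 55 of the 84 genes (65.5%), against 18.8% of all probe sets. CKO replicates 2 and 3 both lay below the other four arrays for 55 genes (65.5%), against 17.3% of all probe sets. The members had high values on every array, whereas all probe sets include dim ones. The shares among probe sets of like brightness were not computed. The median over members of CKO replicate 1 minus the mean of CKO replicates 2 and 3 was 1.25, and over all probe sets -0.09. This gap was larger than the absolute difference between the groups for 82 of the 84 genes (97.6%), the exceptions being Ndufs4 and Atp5l, and for 70.3% of all probe sets. Relative to the mean of the controls, the median member was higher by 0.60 on CKO replicate 1 and differed by -0.64 on CKO replicates 2 and 3, so the group mean averaged values that lay on opposite sides of the controls. The SD among CKO arrays exceeded that among controls for 78 genes (92.9%), with medians of 0.77 and 0.25. Over all probe sets it did so for 68.1%, with medians of 0.45 and 0.30.

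**Figure D2:**
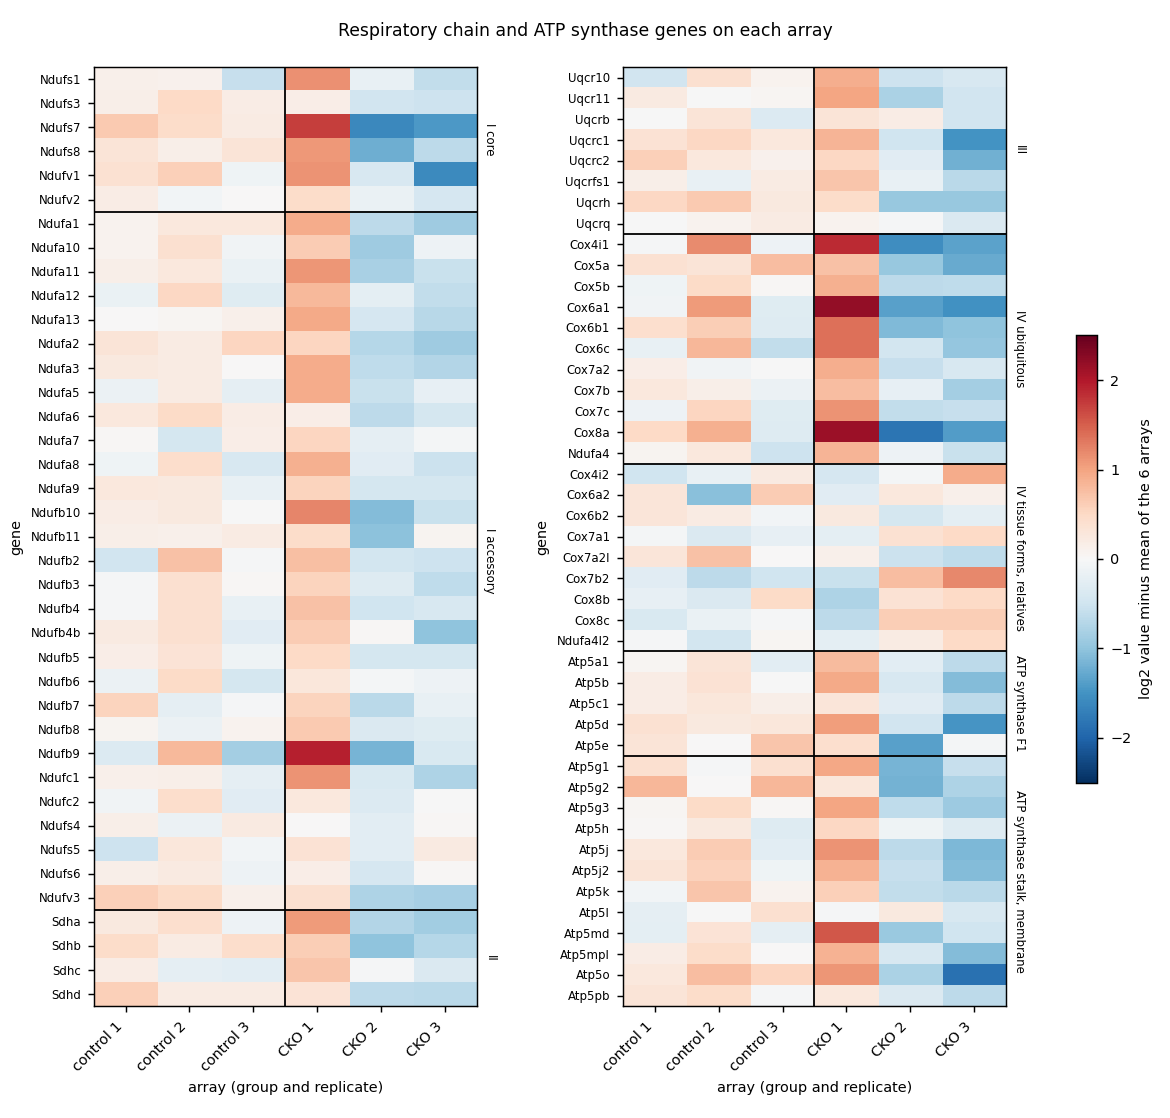
Log2 value minus the mean of the 6 arrays (colour, blue low and red high) for each of the 84 genes (rows, by complex) on each array (columns). The column of CKO replicate 1 is mostly red and those of CKO replicates 2 and 3 mostly blue; of the 9 tissue forms and relatives of complex IV, 4 have CKO replicates 2 and 3 above all other arrays and 2 have them below.

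The division was present on scales that do not depend on an array's range of values, at a smaller size. When each value was replaced by its percentile rank within its array, CKO replicate 1 ranked highest for 51 of 84 genes (60.7%, against 18.3% of all probe sets), and CKO replicates 2 and 3 both ranked below the other arrays for 41 (48.8%, against 16.5%). The rank on CKO replicate 1 exceeded the mean rank on CKO replicates 2 and 3 by a median of 4.25 percentile points. After quantile normalization the gap was 0.98 log2 units, and with equal interquartile ranges 0.52, with CKO replicate 1 highest for 51 genes (60.7%, against 18.2% of all probe sets) and 38 (45.2%, against 16.7%). With equal interquartile ranges, CKO replicates 2 and 3 both lay below the other arrays for 31 genes (36.9%, against 20.3%). In absolute position the members stayed in the upper part of every array: their median percentile was 81.6, 82.0 and 82.3 in controls and 83.1, 80.3 and 81.4 in CKO. Among controls, replicate 2 was the highest for 46 of the 84 genes (54.8%, against 34.3% of all probe sets). CKO replicate 1 and control replicate 2 are also the arrays with the highest means of the astrocyte and neuron markers. The same held for 9 oligodendrocyte markers (9.81 and 9.37). The microglia markers also had their highest mean on CKO replicate 1 (17.18), the highest array for 9 of those 13 genes (69.2%). Among controls their mean was highest on replicate 1 (16.79). Gfap, an intermediate filament of astrocytes, was at 8.21, 11.02 and 7.89 in controls and 11.30, 7.38 and 7.45 in CKO. CKO replicate 1 was the highest array for 12 of the 12 astrocyte markers. CKO replicates 2 and 3 both lay below the other arrays, as in Gfap, for only 2 of them (16.7%, against 17.3% of all probe sets). The part of any of these cell types in the respiratory gene values was not tested.

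**Figure D3:**
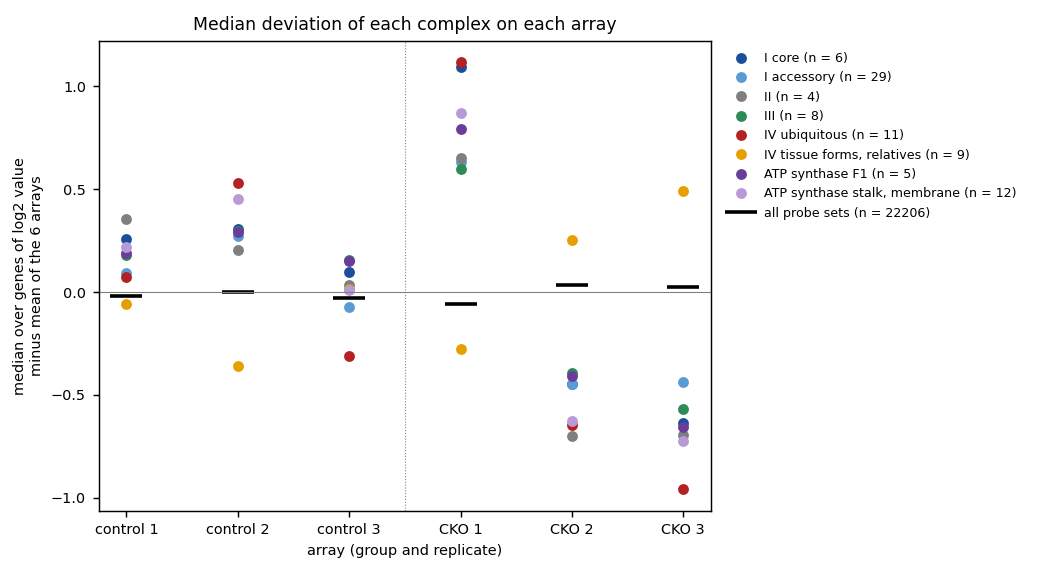
Median over the genes of each complex of the log2 value minus the mean of the 6 arrays (y axis), for each array (x axis); black bars give the same for all 22206 probe sets. On CKO replicate 1 the 7 groups other than the complex IV tissue forms and relatives lie at 0.60 to 1.12 and on CKO replicates 2 and 3 at -0.96 to -0.39.

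The promoter sequences of the members were also read. Nuclear genes of the respiratory chain are textbook targets of NRF1, of ETS-family factors such as GABPA (NRF2) and of YY1. RefSeq promoter windows (GRCm38.p6), from 250 bases before to 50 bases after a gene's start, were at hand for 69 of the 84 genes and for 27025 genes in all. The searched letters were GCATGCGC for NRF1, CCGGAAG for ETS factors and AAGATGGC for YY1, each on both strands. The NRF1 letters stood in 10 of the 69 genes (14.5%, against 3.05% of all genes), the ETS letters in 17 (24.6%, against 9.93%) and the YY1 letters in 10 (14.5%, against 3.19%). The YY1 matches of Atp5j and Atp5pb began before the start. Those of the other genes began 22 to 38 bases after it, thus within the transcript. At least 1 of the 3 motifs stood in 31 members (44.9%, against 14.9%). Of the tissue forms and relatives, 5 had a window (Cox6b2, Cox7a1, Cox7a2l, Cox7b2 and Cox8b). Of these, 0 held any of the 3 motifs, against 14.9% of all genes. With 5 genes, a count of 0 is near that share. A match is a run of letters and not a measured binding site. Whether genes with and without a match differ in their values across the arrays was not tested. One member of each complex is shown, each with a match in the 200 bases before its start, 5′ to 3′ in the direction of the gene, with matches in capitals; GCGCATGCGC is the NRF1 motif on both strands, overlapping itself.
Ndufa6, chr15:82354292-82354491, minus strand: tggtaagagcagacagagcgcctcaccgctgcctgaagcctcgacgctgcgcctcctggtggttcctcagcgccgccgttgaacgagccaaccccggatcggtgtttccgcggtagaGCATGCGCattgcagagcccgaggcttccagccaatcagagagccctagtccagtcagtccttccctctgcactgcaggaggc
Sdhb, chr4:140961071-140961270, plus strand: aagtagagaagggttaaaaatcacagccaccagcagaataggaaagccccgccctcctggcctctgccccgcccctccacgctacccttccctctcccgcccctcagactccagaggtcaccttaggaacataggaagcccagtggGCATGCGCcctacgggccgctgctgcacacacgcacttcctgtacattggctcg
Uqcrh, chr4:116075071-116075270, minus strand: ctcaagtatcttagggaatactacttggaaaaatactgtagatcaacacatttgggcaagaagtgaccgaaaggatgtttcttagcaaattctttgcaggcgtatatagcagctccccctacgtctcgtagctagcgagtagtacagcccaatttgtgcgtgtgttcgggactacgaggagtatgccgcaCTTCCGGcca
Cox6a1, chr5:115348959-115349158, minus strand: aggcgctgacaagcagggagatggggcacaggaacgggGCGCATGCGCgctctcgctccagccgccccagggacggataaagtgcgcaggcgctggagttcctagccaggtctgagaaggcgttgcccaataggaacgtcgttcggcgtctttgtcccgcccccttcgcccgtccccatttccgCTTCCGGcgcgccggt
Atp5g2, chr15:102671048-102671247, minus strand: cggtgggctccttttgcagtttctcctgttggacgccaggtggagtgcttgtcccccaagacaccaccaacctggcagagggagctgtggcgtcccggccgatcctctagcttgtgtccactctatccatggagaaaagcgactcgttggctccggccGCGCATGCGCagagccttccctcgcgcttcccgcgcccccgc
In these windows the NRF1 match began 83 bases before the start of Ndufa6 and 54 bases before that of Sdhb. The ETS match began 10 bases before the start of Uqcrh and 16 bases before that of Cox6a1. The overlapping NRF1 matches began 162 and 160 bases before the start of Cox6a1, and 42 and 40 before that of Atp5g2.

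Of the 6 core subunits of complex I, 5 had a lower mean in CKO and 1, Ndufs1, a higher one, with a median difference of -0.54; 0 passed the test. Ndufs7, an iron-sulphur subunit at the end of the electron path to ubiquinone, stood at 9.36, 9.17 and 8.90 in controls and at 10.43, 7.09 and 7.27 in CKO. The controls lay within a narrow band, CKO replicate 1 above it and the other CKO arrays below it. The difference was -0.88 (SE 0.79, limma adjusted p = 0.709). Ndufs8, which carries further iron-sulphur clusters, had values of 11.36, 11.18 and 11.35 in controls and 12.11, 9.82 and 10.37 in CKO, again with the CKO arrays on either side of the controls (difference -0.53, SE 0.54, adjusted p = 0.734). For Ndufs3, another core subunit, control values were 12.23, 12.57 and 12.26 and CKO values 12.24, 11.59 and 11.56. Here CKO replicate 1 fell inside the control range (difference -0.56, SE 0.30, adjusted p = 0.558).

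The 29 accessory subunits of complex I do not carry electrons and serve its assembly and stability. Means were lower in CKO for 23 and higher for 6, with a median difference of -0.16 and differences from -0.80 to 0.26, and 0 passed. Ndufa6, a subunit of the LYR family that binds the mitochondrial acyl carrier protein, was measured at 9.20, 9.42 and 9.13 in controls and 9.10, 8.29 and 8.51 in CKO. Its groups did not overlap, though CKO replicate 1 lay just below control replicate 3, and the difference of -0.62 (SE 0.30) had an adjusted p of 0.537. Ndufv3, in the NADH-oxidising arm, gave 6.72, 6.59 and 6.25 in controls and 6.53, 5.34 and 5.29 in CKO (difference -0.80, SE 0.38, adjusted p = 0.531). Ndufa2 gave 9.22, 9.11 and 9.44, and 9.44, 8.18 and 8.02 (difference -0.71, SE 0.40, adjusted p = 0.574). In both, CKO replicate 1 lay within the control range or at its top and the other CKO arrays below it. Ndufb9, chosen here after its values were seen because its interval was among the widest, ran from 12.05 to 13.71 in controls and was at 14.84, 11.75 and 12.52 in CKO. Ndufb4 and Ndufb4b are near-identical copies that can share probes; their differences were -0.11 and -0.23.

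Complex II links the tricarboxylic acid cycle to the chain and has 4 subunits, of which 3 had a lower mean in CKO and Sdhc a higher one (median difference -0.51; 0 passed). Sdhb, the iron-sulphur subunit, stood at 11.73, 11.47 and 11.70 in controls and 11.88, 10.26 and 10.56 in CKO (difference -0.73, SE 0.43, adjusted p = 0.584). Sdhd, a membrane anchor, stood at 10.16, 9.77 and 9.77, and 9.91, 8.91 and 8.89 (difference -0.66, SE 0.35, adjusted p = 0.555). For both genes CKO replicates 2 and 3 were below every control, and CKO replicate 1 was within or just above the control range. Sdha, the flavoprotein that oxidises succinate, had a difference of -0.36 (SE 0.51), with a 95% interval of -1.52 to 0.80.

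Of the 8 subunits of complex III, 7 had a lower mean in CKO, with a median difference of -0.19, and 0 passed. Uqcrh, the hinge protein near cytochrome c1, had the smallest p of the complex. It was at 13.81, 13.93 and 13.53 in controls and 13.75, 12.34 and 12.34 in CKO, a difference of -0.95 (SE 0.41, adjusted p = 0.504). The CKO arrays 2 and 3 lay more than a log2 unit below the lowest control, whereas CKO replicate 1 was among the controls. Uqcrc1, a core protein of the complex, gave 9.46, 9.62 and 9.35, and 9.94, 8.59 and 7.61 (difference -0.76, SE 0.53, adjusted p = 0.633), and its partner Uqcrc2 gave 8.72, 8.39 and 8.23, and 8.63, 7.84 and 6.91 (difference -0.65, SE 0.43, adjusted p = 0.622). For these core proteins CKO replicate 3 was the lowest array. Uqcrb, which helps bind ubiquinone, was the 1 gene with a higher mean, by 0.02 (SE 0.32).

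Among the 11 ubiquitous subunits of complex IV, 10 had a lower mean in CKO and Ndufa4 a higher one, with a median difference of -0.26, and 0 passed. These genes had the widest division within CKO of all groups: the median of CKO replicate 1 minus the mean of the other CKO arrays was 1.85, and CKO replicate 1 was the highest array for 10 of the 11, the exception being Cox5a. Cox8a, a small membrane subunit, stood at 14.91, 15.30 and 14.08 in controls and 16.55, 12.58 and 13.01 in CKO. CKO replicate 1 exceeded the mean of the other CKO arrays by 3.76, and the difference between groups was -0.72 (SE 0.93, adjusted p = 0.797). Cox4i1, the usual form of subunit 4 and a site of regulation by ATP, was at 11.28, 12.48 and 11.17, and 13.16, 9.75 and 9.96 (difference -0.69, SE 0.85, adjusted p = 0.784). Cox5a, a subunit on the matrix side, was at 10.22, 10.18 and 10.62, and 10.59, 8.90 and 8.58 (difference -0.98, SE 0.50, adjusted p = 0.546). In Cox4i1 and Cox8a the highest control was replicate 2, as it was for 8 of the 11 genes. Cox6a1, whose promoter is printed above, reached 16.29 on CKO replicate 1 and 12.74 and 12.58 on CKO replicates 2 and 3, with controls at 14.01, 15.15 and 13.78.

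The tissue forms and relatives of complex IV subunits were mixed. Of these 9 genes CKO replicate 1 was the highest array for 0, and CKO replicates 2 and 3 both lay above the other arrays for 4 (44.4%, against 22.2% of all probe sets): Cox7a1, Cox7b2, Cox8c and Ndufa4l2. For 2, Cox6b2 and Cox7a2l, they both lay below, as in most other members. Means were higher in CKO for 7 and lower for Cox7a2l and Cox6b2, with a median difference of 0.30, and 0 passed. Cox7b2, a form known from testis, was at 6.47, 6.10 and 6.25 in controls and 6.18, 7.52 and 7.95 in CKO (difference 0.94, SE 0.45, adjusted p = 0.529). Cox8c, also known from testis, was at 7.47, 7.68 and 7.81, and 7.19, 8.46 and 8.47 (0.39, SE 0.39). For both genes CKO replicate 1 was within or below the controls and the other CKO arrays above them. Cox7a1, of heart and skeletal muscle, was at 7.36, 7.06 and 7.22, and 7.17, 7.79 and 7.91 (0.41, SE 0.30, adjusted p = 0.645).

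In further muscle forms CKO replicate 1 was again the lowest CKO array, but CKO replicates 2 and 3 did not both exceed every control. Cox6a2 was at 7.98, 6.64 and 8.32 in controls and 7.41, 7.94 and 7.82 in CKO (0.08, SE 0.44), and Cox8b at 4.78, 4.63 and 5.47, and 4.22, 5.35 and 5.48 (0.06, SE 0.41); the CKO arrays overlapped the controls in both. Cox4i2, the subunit 4 form of lung that oxygen shortage induces, was at 5.28, 5.59 and 6.01, and 5.35, 5.73 and 6.70 (0.30, SE 0.40). Ndufa4l2, a target of hypoxia-inducible factor, was at 4.06, 3.63 and 4.15, and 3.85, 4.30 and 4.60 (0.30, SE 0.31). Values of Cox8b, Cox4i2 and Ndufa4l2 lay toward the lower end of the arrays, whose lowest values were 2.93 to 3.07, so their levels are uncertain. The direction of Cox8b turned under quantile normalization (-0.14), cyclic loess (-0.12), median centring (-0.07) and equal interquartile ranges (-0.24). Median centring also turned Cox6a2 (-0.05), and equal interquartile ranges turned Ndufa4l2 (-0.12). Cox6b2, another testis form, was at 7.01, 6.92 and 6.65, and 6.96, 6.27 and 6.47 (-0.29, SE 0.29). Cox7a2l, which joins complexes III and IV into supercomplexes, behaved like the ubiquitous subunits on CKO replicates 2 and 3: it was at 11.73, 12.17 and 11.45, and 11.57, 10.89 and 10.79 (-0.70, SE 0.33, adjusted p = 0.528).

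All 5 genes of the F1 part of ATP synthase, the catalytic head, had a lower mean in CKO, with a median difference of -0.42, and 0 passed. CKO replicates 2 and 3 were both below the other arrays for all 5. Atp5e, the epsilon subunit, stood at 8.55, 8.24 and 8.92 in controls and 8.65, 6.87 and 8.18 in CKO (difference -0.67, SE 0.46, adjusted p = 0.632). Atp5c1, the gamma subunit of the rotating shaft, stood at 13.17, 13.27 and 13.13, and 13.29, 12.69 and 12.32 (difference -0.42, SE 0.31, adjusted p = 0.653). Its controls lay close together, with CKO replicate 1 beside them and the other CKO arrays lower. Of the 12 stalk and membrane genes 10 had a lower mean in CKO (median difference -0.45), and 0 passed. Atp5o, the stator protein that confers sensitivity to oligomycin, was at 9.47, 9.98 and 9.76, and 10.31, 8.42 and 7.34 (difference -1.05, SE 0.65, adjusted p = 0.605). Atp5pb, subunit b of the peripheral stalk, was at 11.68, 11.81 and 11.32, and 11.61, 11.00 and 10.70 (difference -0.50, SE 0.32, adjusted p = 0.616).

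Atp5g1, Atp5g2 and Atp5g3 encode the same mature subunit c, which forms the rotor ring in the membrane, behind different import sequences. Atp5g2 was at 14.34, 13.53 and 14.34 in controls and 13.80, 12.34 and 12.74 in CKO. The groups overlapped, since CKO replicate 1 was above control replicate 2. The difference of -1.11 (SE 0.43) was the largest in size of all members, and the 95% interval of -2.09 to -0.13 excluded 0 before adjustment (limma adjusted p = 0.452). Atp5g1 was at 12.11, 11.68 and 12.12, and 12.68, 10.56 and 11.13 (difference -0.51, SE 0.51, adjusted p = 0.732), and Atp5g3 at 11.74, 12.18 and 11.72, and 12.69, 11.07 and 10.79 (difference -0.36, SE 0.49, adjusted p = 0.803). CKO replicate 1 was the highest array for Atp5g1 and Atp5g3 but not for Atp5g2, and CKO replicates 2 and 3 were the lowest arrays for all 3 genes. On control replicate 2, Atp5g1 and Atp5g2 were the lowest of the controls and Atp5g3 the highest. Whether the 3 genes differ from each other in the group contrast was not tested.

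**Figure D4:**
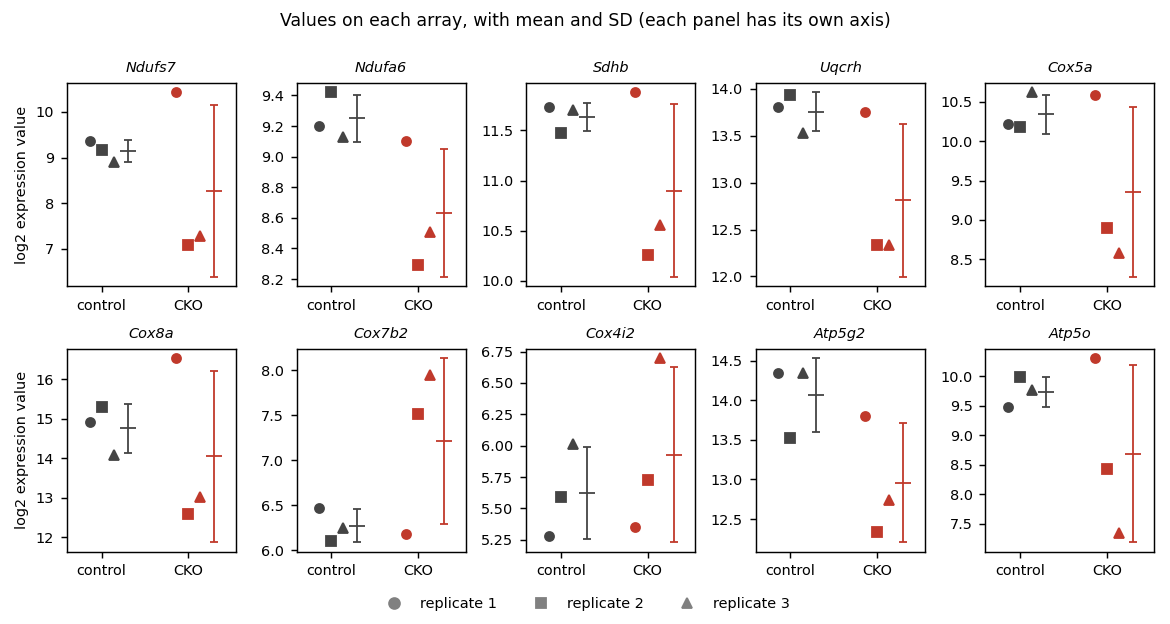
Log2 value on each array (y axis, with its own range in each panel) for 10 genes, by group (x axis) and replicate (symbol), with the mean and SD of 3 arrays beside the points. In 8 panels CKO replicates 2 and 3 lie below every control; Cox7b2 has them above the controls, and Cox4i2 has CKO replicate 3 above.

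Because CKO replicate 1 stood apart, the comparison was also made without it; CKO was then the pair of arrays with the narrow range, and the group cannot be told apart from the range. The high values of these genes were part of what set that array apart, so the calls restate the division within CKO in another form and are no separate support for it. With these 5 arrays 16 of the 84 members were called lower at a limma adjusted p under 0.05 (19.0%), against 4.94% of all probe sets, and 1 higher, against 5.01%. The lower genes came from every group but the tissue forms: 5 of the 11 ubiquitous complex IV genes (Cox5a, Cox8a, Cox4i1, Cox6a1 and Cox6b1), 2 core and 3 accessory genes of complex I, 1 of complex II, 2 of complex III and 3 of ATP synthase. The gene called higher was Cox7b2. The number depended on the normalization: 6 members were lower after quantile normalization (against 2.85% of all probe sets), 5 after cyclic loess (2.25%) and 10 with equal interquartile ranges (4.6%), the last with 3 higher (against 5.81%). The 3 were Cox7b2, Uqcrb and Atp5h. Without CKO replicate 1, Uqcrb differed by -0.14 on the deposited values and by 1.23 with equal interquartile ranges (adjusted p = 0.0481), and Atp5h by -0.20 and 1.05 (adjusted p = 0.0495). Calls under all 4 normalizations were made for Ndufs7, Cox5a, Atp5o and Ndufv3, all lower, and for Cox7b2, higher. Ndufv3 on every array, and Cox7b2 on the controls, lay below the array medians over all probe sets (7.13 to 7.34), so their levels are less certain. Ndufs7 differed by -1.96 on the deposited values and by -2.01 after quantile normalization (adjusted p = 0.0116 and 0.0097), and Cox7b2 by 1.46 and 1.30 (adjusted p = 0.0212 and 0.0381). With CKO replicates 2 and 3 left out instead, CKO replicate 1 alone was set against the controls, so its own spread was taken from them: 69 of 84 members had a higher value, with a median of 0.60, and 0 were called.

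Other genes of mitochondrial respiration, from lists chosen for this purpose, were counted in the same way. Of 47 assembly factors measured, 27 had a lower mean in CKO (median difference -0.05), and 0 passed adjusted. At an unadjusted p under 0.05, 1 was lower and 0 higher, against 6.35% and 3.55% of all probe sets. That gene was Ndufaf3, an assembly factor of complex I, at 8.16, 8.38 and 8.16 in controls and 7.67, 7.18 and 7.64 in CKO (difference -0.74, SE 0.27, adjusted p = 0.426). Its groups did not overlap, and CKO replicate 1 lay with the other CKO arrays. In all, 3 assembly factors lay below the controls without overlap and 1 above, against 8.48% and 5.94% of all probe sets. Oxa1l, which inserts proteins into the inner membrane, differed by -0.74 (SE 0.33, adjusted p = 0.509). Of 19 genes of the tricarboxylic acid cycle and its feeders, 10 had a lower mean (median -0.06), and 0 passed adjusted. At an unadjusted p under 0.05, 1 gene, Acod1, was lower, against 6.35% of all probe sets. This gene, whose product makes itaconate, an inhibitor of succinate dehydrogenase, in activated macrophages, had values of 8.82, 7.69 and 10.73 in controls and 5.76, 8.30 and 6.95 in CKO (difference -2.08, SE 0.83, adjusted p = 0.47), with overlap. Dlst, a subunit of the 2-oxoglutarate dehydrogenase complex, differed by -0.83 (SE 0.46). The median deviation of the cycle genes was 0.58 on CKO replicate 1 and -0.14 and -0.58 on CKO replicates 2 and 3. CKO replicate 1 was the highest array for 12 of these 19 genes (63.2%, against 18.8% of all probe sets). CKO replicates 2 and 3 both lay below the others for 8 (42.1%, against 17.3%). For the 47 assembly factors the same counts were 14 (29.8%) and 11 (23.4%).

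Electron carriers, regulators and further subunits outside the symbol rule gave 9 measured genes, 4 of them with a lower mean (median 0.03), and 0 passed. Cycs, somatic cytochrome c, was at 13.15, 12.94 and 13.13 in controls and 13.47, 13.64 and 13.35 in CKO. Its CKO arrays were all above the controls, as for 5.94% of all probe sets, by a difference of 0.41 (SE 0.26, limma adjusted p = 0.604). This carrier between complexes III and IV thus did not show the division within CKO seen in most subunits. Cyc1, of complex III, did: it was at 7.72, 7.46 and 7.39, and 8.51, 6.34 and 6.88. In this list CKO replicate 1 was the highest array for 4 genes (44.4%, against 18.8% of all probe sets). CKO replicates 2 and 3 both lay below the others for 3 (33.3%, against 17.3%). Etfa, of the flavoprotein that feeds electrons from fatty acid oxidation, differed by -0.34 (SE 0.31). Of 16 transcription factors and mitochondrial transcription genes, 8 had a lower mean (median 0.01) and 0 passed. Ppargc1a, a coactivator of mitochondrial biogenesis, was at 7.93, 8.63 and 6.68, and 10.56, 8.16 and 8.36 (difference 1.28, SE 0.70, adjusted p = 0.569); its highest value was on CKO replicate 1. Gabpb1, a subunit of the ETS factor GABP, differed by -0.55 (SE 0.35), and Tfam, which packages and transcribes mitochondrial DNA, by 0.01 (SE 0.27). Subunits encoded by mitochondrial DNA were not analysed here.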

How the data were processed

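Microglial RNA, from 3 samples per group, was labelled for Affymetrix whole-transcript arrays, per the labels' protocols. The deposited table holds log2 values, which the authors obtained by RMA, per the submitters' processing notes. Its version and settings, and how the cells were isolated, were not stated there or in the labels. Whether the arrays were normalized together was not stated either. Their interquartile ranges differed, so the deposited values do not share a common distribution. Depth does not apply, and the number of arrays limits the precision.

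Gene symbols came from the platform annotation, in which 19572 of 22206 probe sets name 1 gene, 0 several and 2634 none. All 84 members matched a mouse gene table (GRCm38.p6) by Entrez number, and 0 had values identical to another probe set's. Where a gene had several probe sets, that with the highest mean was used.

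The fit used limma 3.58.1 under R 4.3.3 (lmFit and eBayes, CKO minus control, no covariate, two-sided), with Benjamini-Hochberg adjustment over all 22206 probe sets. No set test was run. The fit was tested on simulated data. Members, lists, complex groups and settings were chosen with earlier results of these data known. Genes given on every array were those with the smallest p in each complex group (3, or 2 in groups of under 6), the 4 largest differences, the complex IV tissue forms and relatives, and Atp5g1 to Atp5g3, 30 in all; in related lists, the 2 smallest p. Cox6a1, Ndufb9, Sdha, Ndufb4, Ndufb4b, Uqcrb, Atp5h, Cyc1, Tfam, Gfap and the genes named only in a list were added after their values were seen. Alternatives changed the normalization, filter, variance model, weights, block, samples and probe sets; 3 that combine a normalization with the omission of CKO replicate 1 were chosen after seeing the data.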

Additional observations from a re-analysis of the deposited data

How the results depend on the processing

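The absence of members at adjusted p under 0.05 held under all settings with 6 arrays except array weights, and with each array left out except CKO replicate 1. With array weights 5 members (5.95%) and 7.63% of all probe sets were called. At unadjusted p under 0.05, 32 members were lower and 2 higher, against 14.2% and 15.1% of all probe sets. In all, 6515 probe sets passed that p (2197 as reported). The 1 lower member at unadjusted p became 4 with median centring (against 8.14% of all probe sets) and 2 with a trended robust fit (6.5%). It became 3 with the replicate block (6.42%) and 2 with a gene's probe sets averaged (6.55% of all genes). Correlations of deviations between samples of like replicate number were -0.01, -0.23 and 0.25. They gave no clear sign of pairing but, with 3 arrays per group, cannot exclude it. The replicate block called 0 members and 0 probe sets after adjustment.

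Leaving out each array in turn gave 0 to 17 members at adjusted p under 0.05, against 0 to 9.95% of all probe sets. At unadjusted p, 0 to 39 members were lower, against 3.84% to 13.6% of all probe sets. From 0 to 3 were higher, against 1.71% to 15.4%, and 1242 to 6441 probe sets passed that p in all. The median of the members less that of all probe sets ran from -0.72 to -0.05 (-0.28 as reported). The upper counts and the lowest median came without CKO replicate 1. Differences ranged from -0.17 to 0.46 for Cox8b, -0.43 to 0.41 for Cox6a2, -1.97 to 0.02 for Cox8a and -0.09 to 0.59 for Cox4i2. Without CKO replicate 1, quantile normalization gave 7 members at adjusted p under 0.05, against 6.04% of all probe sets. At unadjusted p it gave 28 lower and 2 higher, against 12.2% and 11.7% of all probe sets (5296 in all). Equal interquartile ranges gave 13 (against 10.4%), and 24 lower and 6 higher, against 15.2% and 13.4% (6340 in all). Cyclic loess gave 6 (against 4.98%), and 28 lower and 2 higher, against 11.6% and 11.3% (5073 in all). Those 3 settings were chosen after seeing the data. That with equal interquartile ranges turned Cox8b (-0.10), Ndufa4l2 (-0.24) and Atp5c1 (0.16), and, against the deposited values without that array, Uqcrb (-0.14 to 1.23) and Atp5h (-0.20 to 1.05).

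With CKO replicates 2 and 3 both left out, 0 members were lower and 18 higher at unadjusted p (4.88% and 5.99% of all probe sets), the median less that of all probe sets was 0.64, and these differences turned: Ndufs7 1.29, Ndufs8 0.81, Ndufa2 0.18, Ndufv3 0.01, Sdhb 0.25, Sdhd 0.01, Uqcrc1 0.46, Uqcrc2 0.18, Cox4i1 1.52, Cox5a 0.25, Cox8a 1.79, Cox4i2 -0.28, Cox6a2 -0.24, Cox6b2 0.10, Cox7a1 -0.04, Cox7b2 -0.09, Cox8b -0.74, Cox8c -0.46, Ndufa4l2 -0.10, Atp5c1 0.10, Atp5e 0.08, Atp5g1 0.71, Atp5g3 0.81, Atp5o 0.57, Atp5pb 0.01. Over 6 arrays, Cox8b turned under quantile normalization (-0.14), median centring (-0.07), equal interquartile ranges (-0.24) and cyclic loess (-0.12), Cox6a2 under median centring (-0.05) and Ndufa4l2 with equal interquartile ranges (-0.12). Fewer arrays set the values in the settings that leave arrays out; elsewhere the cause was not tested. With 3 arrays per group, the median standard error of a member's difference was 0.42, which sets the size that could be detected.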
